A study of Mus musculus with 55 samples.

Results

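The comparison was between 9 hearts of wild-type mice, 5 taken after a gavage of tridocosahexaenoin (the triglyceride of docosahexaenoic acid, DHA, called DHA oil here) and 4 taken after a gavage of Wy14643, a synthetic agonist of the nuclear receptor PPARα. These hearts were chosen by their labels, out of 55 hearts in the series, and every gene bright enough to be measured was compared, which left 8237 of the 18193 genes that the arrays could name. Each heart was hybridised to 1 Affymetrix array, and a level below is the log2 signal of 1 probe set. The question was where an oil made of a natural fatty acid ligand and a drug-like ligand of the same receptor left the heart with different transcript levels.

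All mice were male and of the Sv129 strain, had eaten an AIN76A diet with olive oil in place of corn oil for the weeks before, and were fasted for 4 h. The DHA oil group received 400 µL of neat oil and the Wy14643 group the same volume of agonist at 10 mg/mL, suspended in 0.5% carboxymethyl cellulose, and the 3 control hearts came from mice given that vehicle, though another label field gives their treatment as none. Hearts were taken 6 h after gavage. Wild-type mice were 129S1/SvImJ, and the 5 DHA oil, 5 Wy14643 and 5 control hearts without the receptor (PPARα-null below) came from PPARα-/- mice of the 129S4/SvJae line, so that the substrain and the deletion cannot be told apart. Age is stated as 9 to 12 weeks in one label field and as 2 to 6 months in another. An oil and a suspended agonist differ in agent, calories, amount and vehicle at once, and these cannot be told apart in the comparison of DHA oil with Wy14643. The labels do not say whether the hearts of a group came from separate cages or days. A p-value below therefore reflects only how much hearts varied within groups. That spread was pooled over all 55 arrays, both genotypes and the other oils included.

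PPARα is a nuclear receptor that binds fatty acids and fibrate-type drugs, pairs with RXR and switches on genes of fatty acid uptake and breakdown. In heart muscle its known targets include Angptl4, Ucp3, Pdk4 and the acyl-CoA thioesterases, and PGC-1 coactivators such as Ppargc1b work with it and with the ERR receptors. Polyunsaturated fatty acids are also known to lower the activity of SREBP-1c and to act against LXR, the sterol receptor that drives Abca1 and Srebf1.

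Few genes were called between DHA oil and Wy14643, and most of those were lower after DHA oil. Limma, fitted over all 55 arrays with Benjamini-Hochberg adjustment, called 60 of 8237 genes at an adjusted p under 0.05, which is 0.728%. Of these, 42 (0.51%) were lower and 18 (0.219%) were higher after DHA oil, and 19 of the lower and 5 of the higher genes differed by more than 1.5-fold. The largest differences were in the PPARα targets Angptl4 and Acot1, 3.67-fold and 3.43-fold lower after DHA oil than after Wy14643. In 47 of the 60 genes the arrays of the groups did not overlap, as they did not in 3.24% of all genes. DHA oil hearts lay above all Wy14643 hearts in 15 of the 18 higher genes and below them in 32 of the 42 lower genes, against 1.02% and 2.22% of all genes. A fit of the 9 arrays alone called 0 genes, so the calls need a spread estimated over more than these groups. It had 823 genes at an unadjusted p under 0.05, against 822 in the fit over all arrays. If no gene differed, 411.9 would be expected at that level, so a gene without a call can still differ. A fit of the wild-type groups alone called 61 genes, 42 of them among the 60, and did not call Angptl4 (adjusted p = 0.0649, limma), Ucp3, Srebf1, Hif1a or 9 others of the 44 named genes. Averaging all probe sets of a gene, dim ones included, moved the log2 difference of 17 of those 44 by more than 1.5 times and ended 14 calls. For Angptl4 that average was −0.95 and stayed called (adjusted p = 0.0353, limma), for Hsd17b11 it was −0.39 and did not (adjusted p = 0.0561, limma). The count was 20 without Wy14643 heart 1, 22 without Wy14643 heart 4, 29 without DHA oil heart 5, 32 without DHA oil heart 3 and 92 without DHA oil heart 4.

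The hearts were alike in overall signal. Array medians lay between 2.55 and 2.6, pairs of arrays among the wild-type DHA oil, Wy14643 and control hearts correlated at 0.992 to 0.996 over all probe sets, and 29.4% to 30.2% of probe sets were bright. The Actb 3′ minus 5′ difference, a sign of RNA quality, was 0.0208 lower after DHA oil than after Wy14643 on the log2 scale (exact two-sided permutation test, p = 0.706, where 0.00794 is the smallest that 5 against 4 arrays can give). All 9 ventricular myocyte markers were bright, and all measured lymphocyte and neutrophil markers were dim. No member of any marker list was called. Summed endothelial marker signal did not overlap, at 13860 to 15080 after DHA oil and 12470 to 13220 after Wy14643, with 13710 to 13780 in control hearts, while 6 of its 12 members had a difference below 0; its part in the results was not tested. The summed signals of the other marker lists overlapped between DHA oil and Wy14643. In whole tissue, fewer cells of a type and less RNA per cell cannot be told apart. The Ppara probe set read 6.93 to 7.49 in the DHA oil and 7.11 to 7.60 in the Wy14643 hearts of PPARα-null mice, below every wild-type DHA oil heart (8.11 to 8.59) and every wild-type Wy14643 heart (8.29 to 8.41), but its probes' place relative to the deletion is not given in the sources used here.

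Among the sequences that bear on the PPARα targets are the 250 bases before the start of Acot1 and Ucp3, shown because these genes were among the most different between the groups. PPARα with RXR is known to bind direct repeats of AGGTCA spaced by 1 base, and capitals below mark each copy of that hexamer, AGGTCA, or of its reverse complement TGACCT. The sequences are from RefSeq (GRCm38.p6), on the plus strand of chr12:84009252-84009501 for Acot1 and of chr7:100472741-100472990 for Ucp3.
Acot1: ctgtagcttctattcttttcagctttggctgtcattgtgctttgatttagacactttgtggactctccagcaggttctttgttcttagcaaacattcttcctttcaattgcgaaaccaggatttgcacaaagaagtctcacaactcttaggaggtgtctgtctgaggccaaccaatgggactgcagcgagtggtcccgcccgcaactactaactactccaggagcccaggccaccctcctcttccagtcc
Ucp3: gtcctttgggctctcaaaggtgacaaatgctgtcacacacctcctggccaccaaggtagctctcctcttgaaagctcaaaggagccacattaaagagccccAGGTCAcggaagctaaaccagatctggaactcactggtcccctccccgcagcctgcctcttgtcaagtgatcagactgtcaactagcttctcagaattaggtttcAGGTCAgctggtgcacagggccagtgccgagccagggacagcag
The Ucp3 stretch holds 2 such hexamers, far apart, and the Acot1 stretch holds 0. Of the 60 called genes, 49 had a promoter entry, a window from 250 bases before to 50 bases after the start. The hexamer AGGTCA, searched on both strands, was in 9 of 35 windows of genes lower after DHA oil (25.7%), in 3 of 14 windows of genes higher after it (21.4%) in 14.7% of 6760 windows of bright genes and in 18.1% of all 27025 windows. The full repeat, AGGTCA followed after any 1 base by AGGTCA, also searched on both strands and itself holding 2 of these hexamers, was in 0 of the 35 and 0 of the 14, in 0.0296% of those of bright genes and in 0.0481% of all windows. These letters describe the windows only.

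Among the called genes, the PPARα targets Angptl4 and Acot1 had the largest log2 differences. Angptl4, a secreted inhibitor of lipoprotein lipase, had log2 levels of 7.43, 5.80, 6.11, 5.11 and 7.07 after DHA oil, against 8.76, 8.18, 7.75 and 8.03 after Wy14643, with 6.25, 6.47 and 5.30 in control hearts. Every DHA oil heart lay below every Wy14643 heart, and the DHA oil hearts spanned the control range. The difference was −1.88 ± 0.41 (log2, SE; adjusted p = 0.0111, limma), with a 95% interval of −2.70 to −1.06, and the call was lost without Wy14643 heart 1 (adjusted p = 0.0833, limma). Acot1, a cytosolic enzyme that splits long-chain acyl-CoA, read 7.41, 6.75, 7.05, 6.12 and 7.40 after DHA oil, against 8.58, 8.65, 8.86 and 8.80 after Wy14643 and 6.72, 7.10 and 6.56 in controls. Its Wy14643 values were tightly grouped and well above both other groups. The difference was −1.78 ± 0.32 (adjusted p = 0.00326, limma) and stayed called in each of the 9 fits that left out 1 of these hearts. Acot1 has a near-identical neighbour, Acot2, and a probe set of either can read the other; the brighter probe set of Acot2 differed by −0.38 ± 0.17 without being called (adjusted p = 0.426, limma), its other one by −1.43, and their mean by −0.90, which was called (adjusted p = 0.00472, limma).

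Targets of mitochondria, peroxisomes and lipid droplets were also among the called genes. Ucp3, a carrier of the inner mitochondrial membrane, stood at 6.73, 5.89, 6.19, 4.85 and 6.93 after DHA oil, against 7.38, 7.34, 6.90 and 7.53 after Wy14643, and 6.38, 6.30 and 5.09 in controls. One DHA oil heart reached the lowest Wy14643 heart, and DHA oil heart 4 was the lowest of all. The difference of −1.17 ± 0.28 was called (adjusted p = 0.0313, limma) but lost its call in 6 of 9 fits that left out a heart: DHA oil hearts 2, 3 and 4 and Wy14643 hearts 1, 2 and 4. Ehhadh, the bifunctional enzyme of peroxisomal β-oxidation, read 5.03, 4.93, 5.15, 4.34 and 5.22 after DHA oil, against 6.02, 5.84, 5.76 and 5.85 after Wy14643 and 5.38, 5.42 and 5.13 in controls. These groups did not overlap, at −0.94 ± 0.17 (adjusted p = 0.00326, limma). Hsd17b11, a dehydrogenase found on lipid droplets, had 9.10, 8.70, 9.08, 8.32 and 9.05 after DHA oil, against 9.49, 9.34, 9.26 and 9.46 after Wy14643 and 8.90, 8.98 and 8.68 in controls. Again no heart overlapped between DHA oil and Wy14643, and the difference was −0.54 ± 0.11 (adjusted p = 0.00401, limma).

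**Figure D1:**
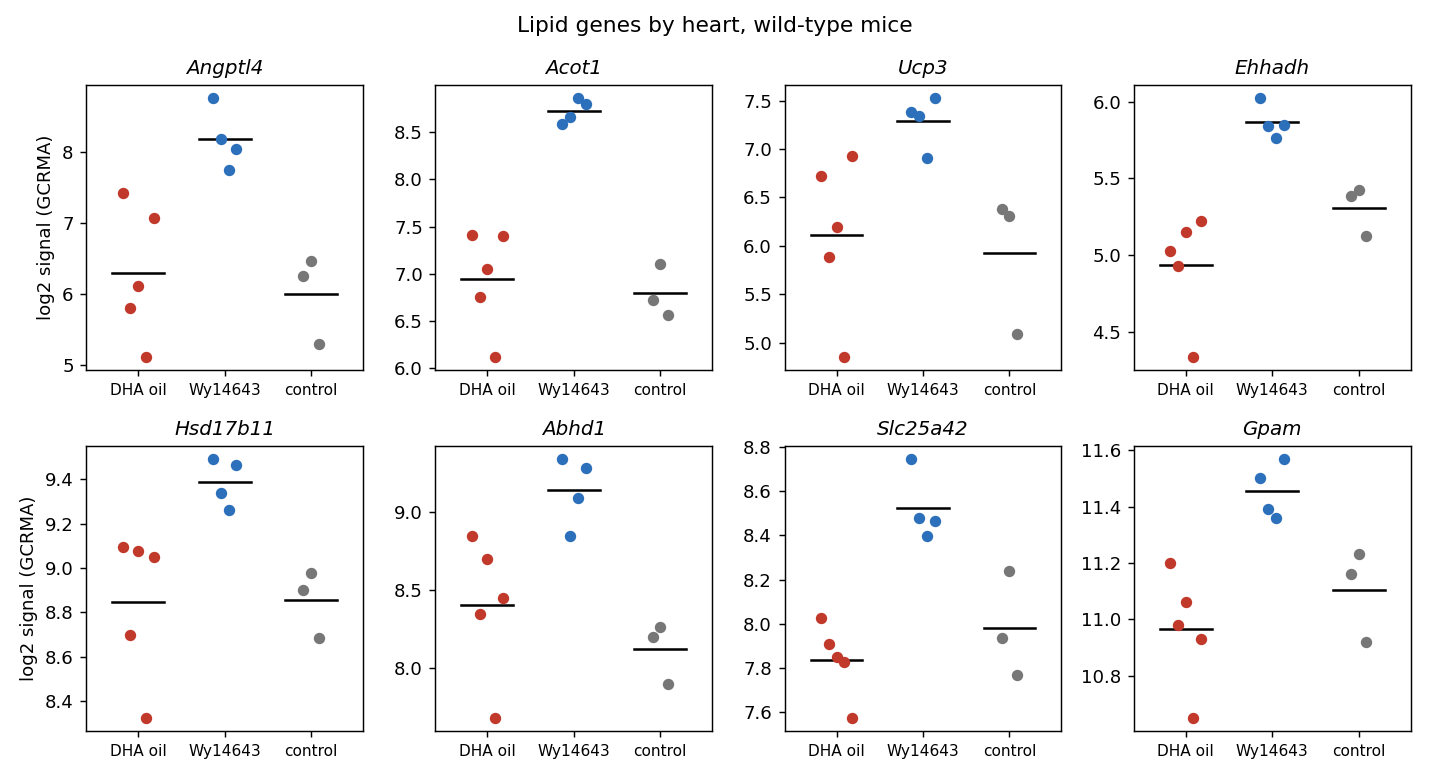
Log2 signal of 8 lipid genes in each wild-type heart (points) with the group mean (bar), for DHA oil (5 hearts), Wy14643 (4) and control (3); each panel has its own vertical axis. Wy14643 hearts lie above all DHA oil hearts for Angptl4, Acot1, Ehhadh, Hsd17b11, Slc25a42 and Gpam, while Ucp3 and Abhd1 overlap. DHA oil heart 4 is the lowest DHA oil heart in every panel but that of Slc25a42.

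Gpam, Slc25a42 and Abhd1 were also lower after DHA oil. Gpam, the mitochondrial acyltransferase that starts glycerolipid synthesis, gave the smallest adjusted p. It read 11.20, 10.98, 11.06, 10.65 and 10.93 after DHA oil, against 11.50, 11.39, 11.36 and 11.57 after Wy14643 and 11.16, 11.23 and 10.92 in controls. The difference was modest and without overlap, at −0.49 ± 0.08 (adjusted p = 0.000383, limma). Slc25a42, the mitochondrial carrier of coenzyme A, had 8.03, 7.91, 7.85, 7.83 and 7.57 after DHA oil, against 8.75, 8.48, 8.40 and 8.46 after Wy14643 and 7.93, 8.24 and 7.77 in controls, a difference of −0.68 ± 0.11 (adjusted p = 0.00101, limma). Abhd1, of the α/β-hydrolase family, touched at a single shared level, with 8.84, 8.34, 8.70, 7.68 and 8.45 after DHA oil, against 9.34, 8.84, 9.09 and 9.29 after Wy14643 and 8.20, 8.26 and 7.90 in controls. It differed by −0.74 ± 0.17 (adjusted p = 0.017, limma), and lost the call without DHA oil heart 4, Wy14643 heart 1 or Wy14643 heart 4. Abcd3, an ABC transporter of the peroxisome membrane, differed by −0.32 ± 0.07 (adjusted p = 0.0077, limma) and lost its call without DHA oil heart 5 or Wy14643 heart 1. The mean of its probe sets differed by −0.11 and was not called (adjusted p = 0.54, limma). Agpat2, the acyltransferase after Gpam, differed by −0.47 ± 0.10 (adjusted p = 0.0077, limma), and was singled out after its values were seen.

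Of 36 bright genes on the list of PPAR targets, 6 were called lower and 1 higher, against 0.51% and 0.219% of all genes. On that list 29 lay below 0, with a median of −0.10 against −0.01 over all tested genes. The gene lists were chosen with earlier results of these data known, so counts in them are a description. Of all tested genes 47.2% lay above 0, the background for each count above or below 0 in a list. The members called lower were Angptl4, Acot1, Ucp3, Ehhadh, Hsd17b11 and Agpat2, and the member called higher was Etfbkmt, which methylates the electron transfer flavoprotein of mitochondria. Pdk4, the kinase that shuts off pyruvate oxidation, read 13.12, 12.53, 12.94, 11.41 and 13.16 after DHA oil, against 13.25, 13.39, 13.37 and 13.28 after Wy14643, with 12.44, 12.53 and 12.36 in controls. Its groups did not overlap, DHA oil heart 4 stood lowest, and the difference of −0.69 ± 0.22 did not pass (adjusted p = 0.144, limma). Also short of the threshold were Mlycd (−0.50 ± 0.14), which breaks down malonyl-CoA, and Cpt1a (−0.51 ± 0.17), which moves acyl groups into mitochondria. The fatty acid uptake protein Cd36 differed by 0.02 ± 0.06, with a 95% interval of −0.09 to 0.14, and the droplet coat protein Plin2 by −0.28 ± 0.13, neither called (adjusted p = 0.947 and 0.435, limma). Ppara itself differed by 0.02 ± 0.12 (95% interval −0.22 to 0.26).

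With 1 probe set per gene, no gene of mitochondrial fatty acid oxidation was called, and Cpt1b was not analysed. Of 22 bright members, 21 lay below 0 with a median of −0.05, and 4 had an unadjusted p under 0.05, against 822 of 8237 genes overall. The largest were Cpt1a, Mlycd, Acot2 and Slc22a5, the carnitine transporter. With its probe sets averaged, Acot2 was called lower, at −0.90 (adjusted p = 0.00472, limma). In the carnitine shuttle, the acyltransferase Cpt2 differed by −0.06 ± 0.06 (95% interval −0.18 to 0.07) and the carrier Slc25a20 by −0.04 ± 0.08 (−0.21 to 0.13). Among enzymes of the β-oxidation spiral, chosen after their values were seen, Acadl differed by −0.01 ± 0.04, Acadm by −0.04 ± 0.04 and Hadha by −0.08 ± 0.08. Of 13 bright uncoupling proteins and mitochondrial carriers, Ucp3 and Slc25a42 were called lower, 0 higher, and 9 lay below 0 (median −0.02). Of 16 bright peroxisomal genes, Ehhadh and Abcd3 were called lower and 0 higher. Oxidative phosphorylation had 15 of 30 members below 0, and 0 called.

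**Figure D2:**
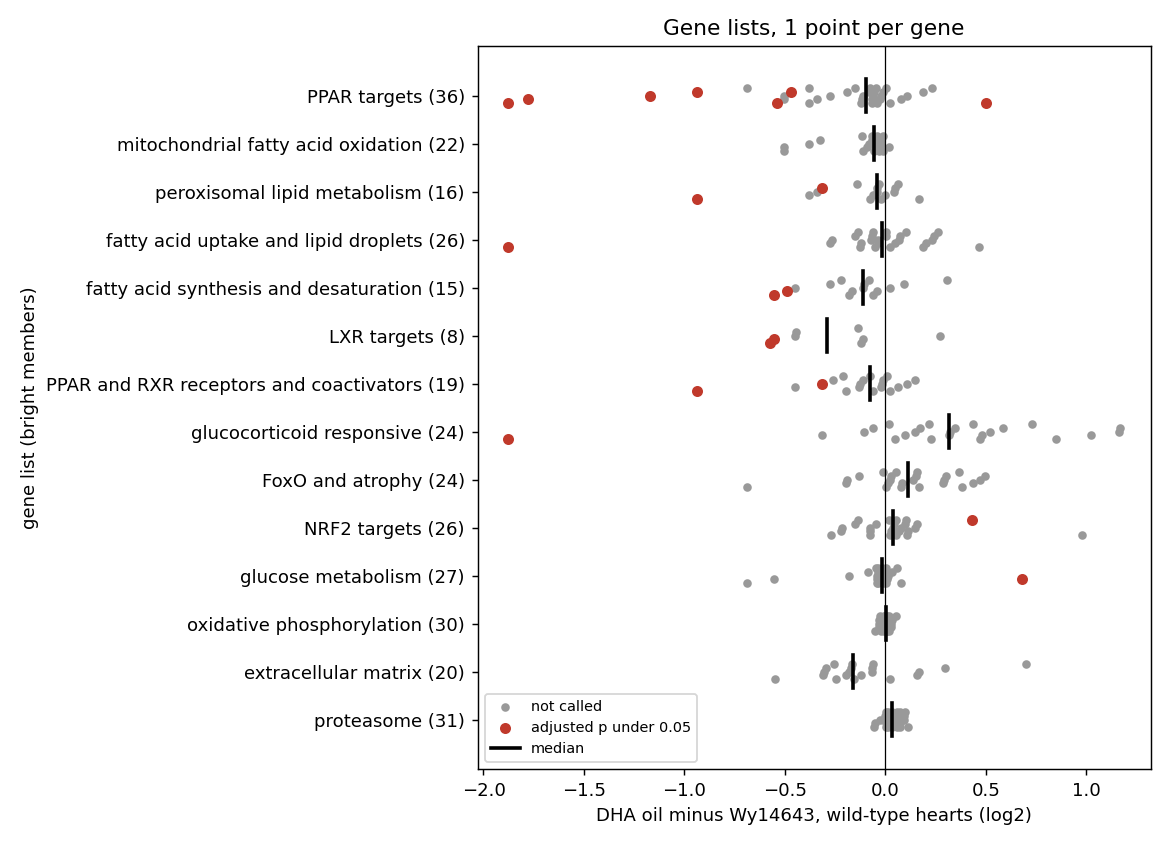
Log2 difference of DHA oil minus Wy14643 in wild-type hearts for the bright members of 14 gene lists (1 point per gene, red where the adjusted p is under 0.05, bar at the list's median); a gene can stand in more than 1 list. The median of the LXR targets is −0.29 and that of the glucocorticoid responsive genes 0.32.

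Regulators of sterol export and lipid synthesis, Abca1 and Srebf1, were lower after DHA oil than after Wy14643. Against control both differed by −0.42 and −0.45 after DHA oil, without a call (adjusted p = 0.132 and 0.119, limma). Of 8 bright LXR targets, 2 were called lower, 0 higher and 7 lay below 0 (median −0.29). Abca1, the pump that exports cholesterol, read 8.53, 8.42, 9.01, 8.40 and 8.54 after DHA oil, against 8.81, 9.16, 9.23 and 9.42 after Wy14643 and 8.97, 9.02 and 9.00 in controls. DHA oil heart 3 stood within the Wy14643 range and the other 4 below it, and the difference was −0.57 ± 0.13 (adjusted p = 0.0231, limma). Srebf1, which encodes the SREBP-1 regulator of fatty acid synthesis, had 5.66, 5.85, 6.03, 5.94 and 5.64 after DHA oil, against 6.19, 6.26, 6.49 and 6.58 after Wy14643 and 6.26, 6.36 and 6.20 in controls. All DHA oil hearts lay below all others, and the difference was −0.55 ± 0.14 (adjusted p = 0.043, limma). The Abca1 call was lost without DHA oil heart 5 or Wy14643 hearts 2, 3 or 4, and that of Srebf1 without DHA oil hearts 1 or 5 or any of the 4 Wy14643 hearts. Of 15 bright genes of fatty acid synthesis and desaturation, Srebf1 and Gpam were called lower and 12 lay below 0 (median −0.11).

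Coactivators and transcription factors formed another group among the genes called lower. Ppargc1b, the PGC-1β coactivator of mitochondrial genes, read 6.96, 7.13, 6.73, 7.53 and 6.30 after DHA oil, against 8.11, 7.85, 7.61 and 7.92 after Wy14643 and 7.90, 7.99 and 7.73 in controls. Wy14643 and control hearts shared a range and every DHA oil heart lay below it, with a difference of −0.94 ± 0.19 (adjusted p = 0.0077, limma) that lost its call without DHA oil heart 5 or Wy14643 heart 1. Its relative Ppargc1a differed by −0.45 ± 0.18 without being called (adjusted p = 0.329, limma). Hif1a, the oxygen-regulated subunit of HIF-1, read 8.73, 8.76, 8.54, 8.81 and 8.38 after DHA oil, against 9.15, 9.02, 8.89 and 9.27 after Wy14643 and 8.71, 8.75 and 8.80 in controls. Here the control hearts lay with the DHA oil hearts, and the difference was −0.44 ± 0.09 (adjusted p = 0.00983, limma), lost without DHA oil heart 5 or Wy14643 hearts 1 or 4. The nuclear receptor Esrrg differed by −0.31 ± 0.07 (adjusted p = 0.0227, limma), but its other bright probe set gave 0.34, and the mean of its probe sets 0.02, so its direction is not settled. Of 19 bright receptors and coactivators, Ppargc1b and Esrrg were called lower and 0 higher.

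Ccnd1, Cdk6, Akr1c14 and Prrg1 were lower as well. Of 7 bright genes on the cell cycle list, Ccnd1 alone was called, and 4 lay above 0 (median 0.01). Ccnd1, cyclin D1, read 7.25, 7.32, 7.07, 7.30 and 6.89 after DHA oil, against 8.02, 7.79, 7.47 and 7.98 after Wy14643 and 7.87, 8.08 and 8.05 in controls. Its kinase partner Cdk6 read 4.95, 4.73, 4.63, 4.70 and 4.37 after DHA oil, against 5.90, 5.25, 5.10 and 5.92 after Wy14643 and 5.20, 5.67 and 5.21 in controls. In both genes every DHA oil heart was below every other heart. The differences were −0.65 ± 0.15 for Ccnd1 and −0.86 ± 0.20 for Cdk6 (adjusted p = 0.0157 and 0.0189, limma), and both calls were lost without DHA oil hearts 3 or 5 or Wy14643 hearts 1 or 4. Akr1c14, an aldo-keto reductase of steroids, spread widely after DHA oil, at 6.17, 6.36, 5.07, 5.73 and 4.72, against 6.59, 6.70, 6.77 and 7.003 after Wy14643 and 6.46, 6.31 and 6.57 in controls. It differed by −1.16 ± 0.27 (adjusted p = 0.0231, limma) and lost its call in 5 of 9 fits, without DHA oil hearts 3 or 5 or Wy14643 hearts 1, 3 or 4. Prrg1, a membrane protein with a γ-carboxyglutamate domain, read 5.45 to 5.85 in the 5 DHA oil hearts, against 6.48 to 7.21 in the 4 Wy14643 hearts and 6.13 to 6.72 in the 3 controls. Its difference was −1.01 ± 0.21 (adjusted p = 0.00704, limma), lost without Wy14643 heart 4, the highest.

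Further called genes ran the same way over a range of roles. The scaffold protein Magi3 (−0.74 ± 0.18), the TNF-inducible Tnfaip2 (−0.80 ± 0.20), the semaphorin receptor Plxnd1 (−0.69 ± 0.16), the bicarbonate transporter Slc4a4 (−0.64 ± 0.14), the lectin Lgals4 (−0.79 ± 0.16) and the single-strand DNA binding Nabp1 (−0.62 ± 0.14) were all lower after DHA oil than after Wy14643. Trim7 (−0.92 ± 0.23) averaged 4.24 after DHA oil, under the brightness limit of 4.32, against 5.16 after Wy14643, and Slc26a2 (−0.68 ± 0.17) averaged 3.52 and 4.21, under the limit in both groups, so these are differences of dim signals. All 8 of these genes lost their call without Wy14643 heart 4, and in 1 to 7 of the 9 fits in all. The 16 called genes not yet covered by the rule for naming, named after their values were seen, include Agpat2 and differed by −0.52 to −0.23. They hold the myocyte transcription factor Mef2d (−0.49), the PGC-1 and ERR regulated muscle gene Perm1 (−0.35), the mitochondrial proteins Akap1 (−0.45) and Opa3 (−0.23), the myocyte nuclear envelope anchor Akap6 (−0.39), the amino acid transporter Slc38a2 (−0.42), and the lysosomal and sorting receptors Scarb2 (−0.31) and Sort1 (−0.37). The other members were Gimap6, Tnfaip8, Ntn4, Rftn1, Fbxo21, Bfar and Hnrnpa0. The calls of these 16 genes were not followed one by one in the fits without a heart. Tnfaip8, Fbxo21, Akap6, Perm1 and Sort1 overlapped between the groups. Akap6, Perm1 and Sort1 were also close to the threshold (adjusted p = 0.0481, 0.0489 and 0.0491, limma).

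**Figure D3:**
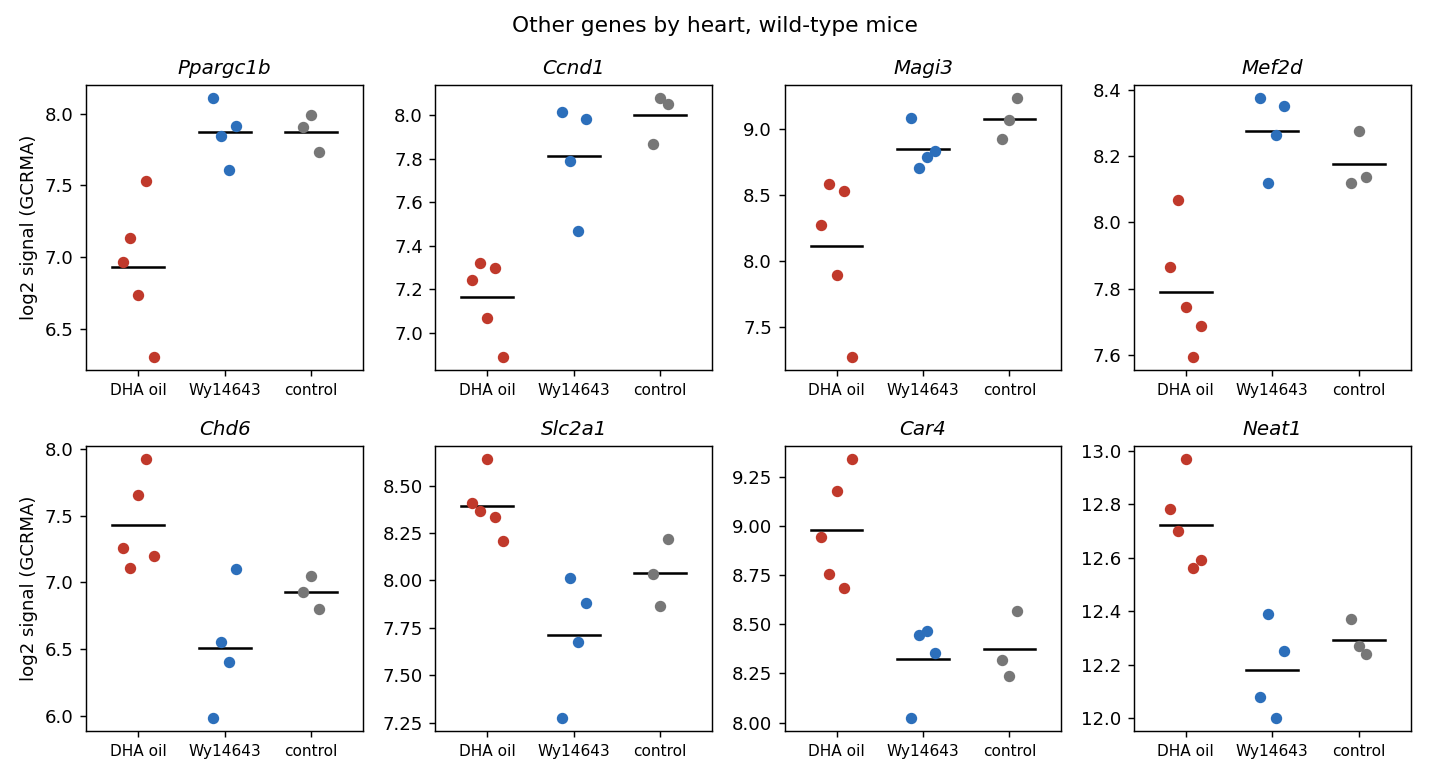
Log2 signal of 8 genes outside lipid breakdown in each wild-type heart (points) with the group mean (bar), for DHA oil (5 hearts), Wy14643 (4) and control (3); each panel has its own vertical axis. DHA oil hearts lie below all Wy14643 hearts for Ppargc1b, Ccnd1, Magi3 and Mef2d, and above all of them for Chd6, Slc2a1, Car4 and Neat1.

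Genes called higher after DHA oil reached smaller differences than those called lower, the most being that of Chd6. Chd6, a chromatin remodeller, read 7.26, 7.11, 7.65, 7.93 and 7.20 after DHA oil, against 5.98, 6.55, 6.41 and 7.10 after Wy14643 and 6.93, 7.05 and 6.80 in controls. Control hearts lay in the upper Wy14643 range and below all DHA oil hearts, and the difference from Wy14643 was 0.92 ± 0.17 (adjusted p = 0.00339, limma), called in each of the 9 fits without 1 heart. Neat1, the long noncoding RNA that builds paraspeckles, read 12.78, 12.70, 12.97, 12.56 and 12.59 after DHA oil, against 12.08, 12.39, 12.00 and 12.25 after Wy14643 and 12.37, 12.27 and 12.24 in controls. All DHA oil hearts lay above all other hearts, by 0.54 ± 0.10 against Wy14643 (adjusted p = 0.00339, limma). Raph1, which binds proteins of actin growth, differed by 0.37 ± 0.07 (adjusted p = 0.00401, limma), and like Neat1 it was called in all 9 fits without 1 heart.

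Transporters and membrane enzymes were among the other genes called higher. Slc2a1, the glucose transporter GLUT1, read 8.41, 8.37, 8.64, 8.34 and 8.21 after DHA oil, against 7.27, 8.01, 7.68 and 7.88 after Wy14643 and 8.04, 7.87 and 8.22 in controls. It was the 1 called member, higher, of 27 bright genes of glucose metabolism, with a difference of 0.68 ± 0.14 (adjusted p = 0.00871, limma). Car4, a membrane-bound carbonic anhydrase, read 8.94, 8.76, 9.18, 8.69 and 9.34 after DHA oil, against 8.02, 8.45, 8.46 and 8.35 after Wy14643 and 8.32, 8.24 and 8.57 in controls. Its Wy14643 and control hearts shared 1 range below all DHA oil hearts, and it differed by 0.66 ± 0.13 (adjusted p = 0.00401, limma). Slc2a1 and Car4 both lost their call without Wy14643 heart 1, as did the dystrophin partner Dtna (0.63 ± 0.12), the cytokine signalling inhibitor Socs2 (0.45 ± 0.09) and Zfp771 (0.53 ± 0.11), a zinc finger gene. Averaging all probe sets of a gene also ended the calls of Dtna, Socs2 and Zfp771, at 0.22, 0.17 and 0.13 (adjusted p = 0.257, 0.525 and 0.305, limma). The lysosomal transporter Slc46a3 (0.89 ± 0.21), the microsomal glutathione transferase Mgst1 (0.43 ± 0.10), Etfbkmt (0.50 ± 0.11), Art3 (0.50 ± 0.12) and Tspyl4 (0.57 ± 0.15) were called too, each losing its call in 3 to 7 of the 9 fits, that without Wy14643 heart 1 included. The remaining called genes were Slco3a1, Rbm45, Zfyve21, Selenos and Ano6, which lost their calls in 5 or 6 of the 9 fits, also without Wy14643 heart 1. A further bright probe set of Ano6 ran the other way, at −0.19, so its direction is not settled.

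Glucocorticoid responsive genes were mostly higher after DHA oil in level, with 1 call and that in the other direction. Of 24 bright members, 20 lay above 0 (median 0.32), 7 were higher and 2 lower at an unadjusted p under 0.05, and Angptl4 alone was called, lower. Across all genes, 3.76% were higher and 6.22% lower at that level. Fkbp5, a chaperone of the glucocorticoid receptor, read 8.42, 8.97, 9.69, 8.77 and 9.28 after DHA oil, against 6.52, 8.40, 8.42 and 8.11 after Wy14643 and 6.10, 6.74 and 8.12 in controls, a difference of 1.16 ± 0.37 (adjusted p = 0.158, limma). Wy14643 heart 1 was the lowest of its group in Fkbp5, Klf15 and Zbtb16, and controls spread as widely. The metal-binding Mt2 read 10.06, 9.97, 11.06, 9.45 and 10.73 after DHA oil, against 8.23, 9.43, 9.29 and 9.40 after Wy14643 and 8.52, 8.72 and 9.55 in controls. Its groups were just apart, and the difference of 1.17 ± 0.32 missed the threshold (adjusted p = 0.065, limma). Mt2 was called at a brightness over 100, with array weights and without DHA oil heart 4 (adjusted p = 0.0464, 0.0332 and 0.023, limma). Hmox1, heme oxygenase, read 9.11, 8.67, 8.68, 5.06 and 9.08 after DHA oil, against 7.23, 6.84, 7.87 and 6.63 after Wy14643 and 5.66, 6.29 and 4.39 in controls. DHA oil heart 4 lay among the controls, and the difference of 0.98 ± 0.60 was not called (adjusted p = 0.641, limma).

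Other lists held few or no calls. Among 24 bright FoxO and atrophy genes, 0 were called and 19 lay above 0, with a median of 0.11. At an unadjusted p under 0.05, 8 were higher and 1 lower, against 3.76% higher and 6.22% lower over all genes. NRF2 targets had 1 of 26 called, Mgst1. The proteasome had 27 of 31 members above 0 and 0 called, with a median of 0.03. Extracellular matrix genes had 15 of 20 members below 0, a median of −0.16 and 0 called, and contractile and calcium handling genes 19 of 23 below 0 with a median of −0.02 and 0 called.

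Each group was also set beside the control hearts, which both comparisons share. Against control, 153 of 8237 genes (1.86%) were called after DHA oil and 5 (0.0607%) after Wy14643. Of those after DHA oil, 63 were higher (0.765%) and 90 lower (1.09%), and of those after Wy14643, 4 were higher (0.0486%) and 1 lower (0.0121%). The 5 after Wy14643 were Angptl4, Acot1, Abhd1 and Mlycd, which were higher, and Frem2, which was lower. The DHA oil count was 0 without control heart 2, 12 without control heart 1, 10 without DHA oil heart 5, 33 without DHA oil heart 3 and 250 without DHA oil heart 4. The Wy14643 count was 0 without control hearts 1 or 3 or Wy14643 heart 4, 8 without Wy14643 heart 3, 9 without control heart 2 and 16 without Wy14643 heart 1. Of the 42 genes lower after DHA oil than after Wy14643, 6 lay above control after DHA oil (median of DHA oil minus control −0.35) and 34 lay above control after Wy14643 (median of Wy14643 minus control 0.15). These differences were called in 10 of the 42 for DHA oil and in 3 for Wy14643. Of the 18 genes higher after DHA oil, all 18 lay above control after DHA oil (median 0.35, 5 called) and 3 after Wy14643 (median −0.13, 0 called). The choice of genes by the difference of these 2 groups fixes part of these directions.

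The position of each side relative to control varied among the called genes. Acot1 stood at 0.15 after DHA oil and at 1.93 after Wy14643 relative to control (adjusted p = 0.896 and 0.0122, limma), and Angptl4 at 0.30 and 2.17 (adjusted p = 0.825 and 0.0409, limma). DHA oil heart 4 was the lowest DHA oil heart in both genes, and its part in these values was not tested. Ppargc1b stood at −0.94 after DHA oil and at −0.01 after Wy14643 (adjusted p = 0.0158 and 0.997, limma), Ccnd1 at −0.84 and −0.19 (adjusted p = 0.00561 and 0.865, limma) and Magi3 at −0.96 and −0.23 (adjusted p = 0.0129 and 0.879, limma). Car4 stood at 0.61 and −0.05 (adjusted p = 0.0188 and 0.97, limma). For Ehhadh neither side was called, at −0.38 after DHA oil and 0.56 after Wy14643 (adjusted p = 0.328 and 0.383, limma), nor for Slc2a1, at 0.35 and −0.33 (adjusted p = 0.27 and 0.667, limma).

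**Figure D4:**
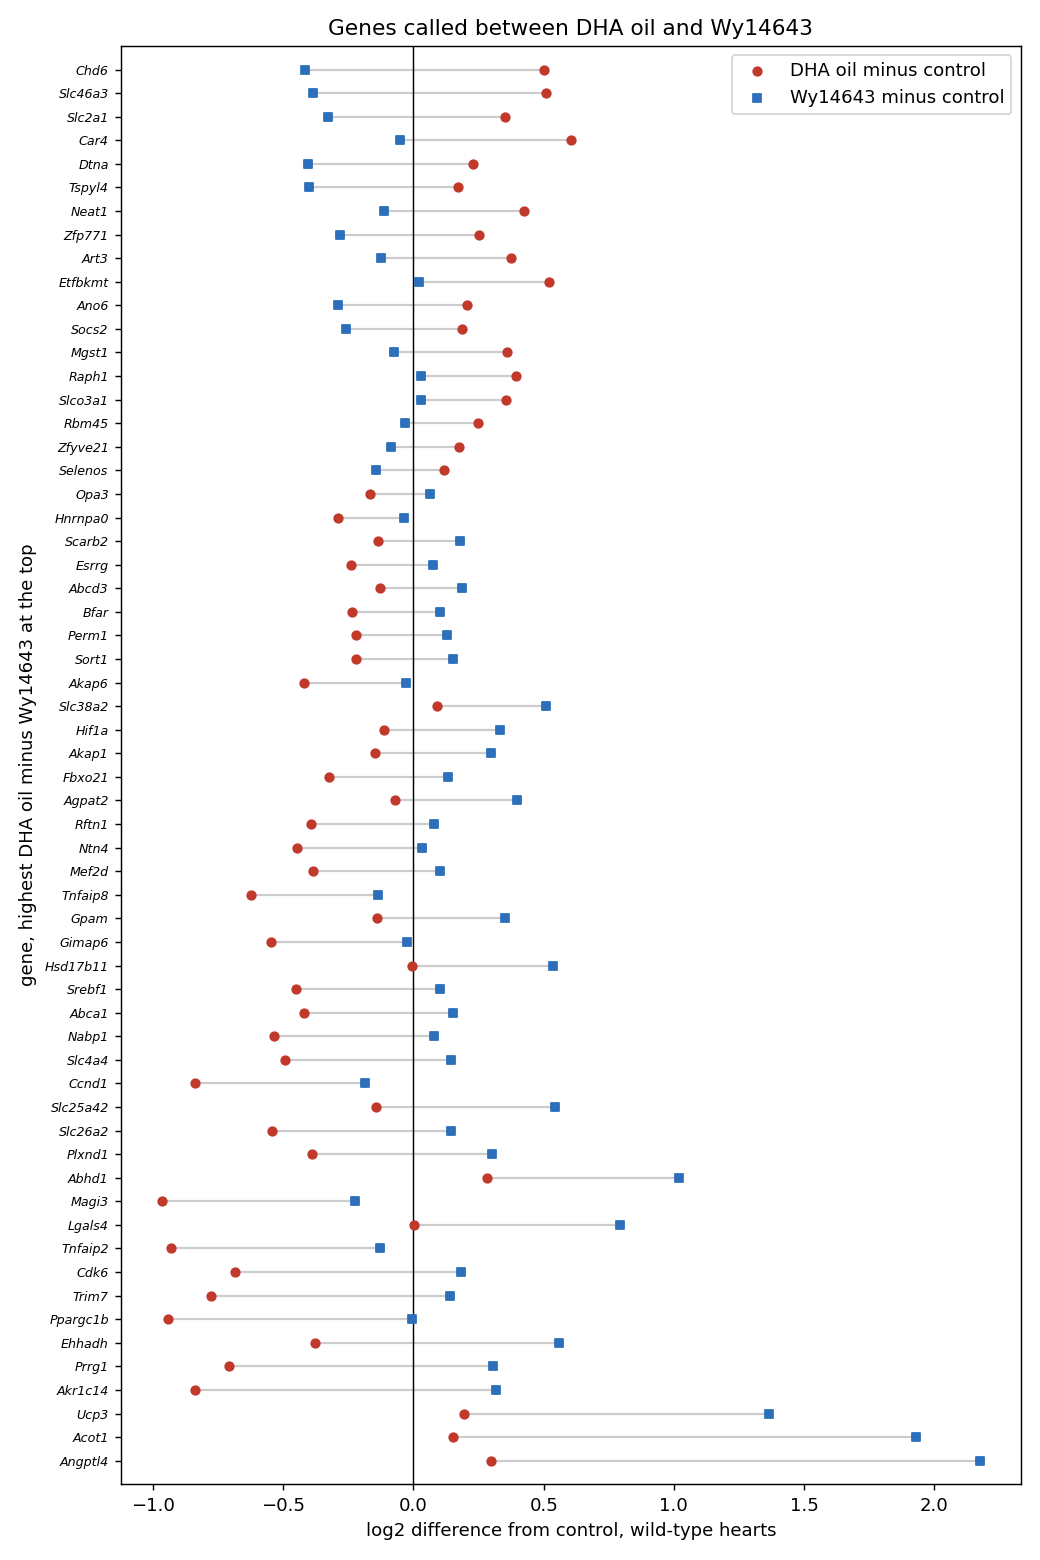
Log2 difference from control in wild-type hearts for the 60 genes called between DHA oil and Wy14643 (red circles, DHA oil minus control; blue squares, Wy14643 minus control), ordered by DHA oil minus Wy14643; both share 3 control hearts. Acot1, Angptl4 and Ucp3 stand far right after Wy14643 and nearer 0 after DHA oil, where heart 4 was the lowest of its group in each. Magi3, Ppargc1b and Ccnd1 stand left after DHA oil.

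The same comparison was then made in PPARα-null hearts, on other arrays. DHA oil minus Wy14643 called 2 of 8237 genes there (0.0243%), both higher after DHA oil. Cyp1b1, a cytochrome P450, read 6.18, 5.21, 5.69, 5.02 and 6.95 after DHA oil, against 4.52, 4.57, 4.72, 4.81 and 4.47 after Wy14643, and differed by 1.19 ± 0.24 (adjusted p = 0.0305, limma). Slc3a2, the heavy chain of amino acid transporters, differed by 0.48 ± 0.09 (adjusted p = 0.0277, limma). In wild-type hearts Cyp1b1 differed by 0.63 ± 0.25 (adjusted p = 0.329, limma), and the genotypes' differences were not called apart (interaction −0.56 ± 0.34, adjusted p = 0.95, limma). The count in PPARα-null hearts was 0 without DHA oil hearts 1, 3 or 5 or Wy14643 hearts 1, 2 or 5 of that genotype, 6 without DHA oil heart 2, 14 without Wy14643 heart 3 and 98 without DHA oil heart 4.

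The interaction, wild-type difference minus PPARα-null difference, called 3 genes (0.0364%), all more negative in wild-type hearts. Hsd17b11 read 7.95, 8.00, 7.94, 7.92 and 8.18 after DHA oil in PPARα-null hearts, against 7.49, 7.74, 7.67, 7.69 and 7.89 after Wy14643 there. Its difference there, 0.30 ± 0.10, had the opposite sign to that in wild-type hearts but was not called (adjusted p = 0.213, limma). The interaction was −0.84 ± 0.14 (adjusted p = 0.00427, limma) and held in all 19 fits that left out 1 heart. Angptl4 read 8.63, 7.39, 8.21, 7.81 and 9.64 after DHA oil in PPARα-null hearts, against 7.30, 7.12, 7.43, 7.71 and 7.47 after Wy14643. That difference of 0.93 ± 0.38 was not called (adjusted p = 0.341, limma), and the interaction was −2.81 ± 0.56 (adjusted p = 0.0249, limma). Acot1 was dim there, at 3.70 to 5.95 in the 5 hearts after DHA oil and 3.87 to 5.06 in the 5 after Wy14643, around the brightness limit, and its interaction was −2.18 ± 0.44 (adjusted p = 0.0249, limma). The Angptl4 call was lost in 10 of the 19 fits and the Acot1 call in 12, with values of −3.09 to −2.48 and −2.46 to −1.90. For both, each of DHA oil hearts 2, 3 and 4 and Wy14643 hearts 1, 2 and 4 of wild-type mice and DHA oil hearts 1 and 5 and Wy14643 hearts 1 and 5 of PPARα-null mice cost the call, and for Acot1 also wild-type Wy14643 heart 3 and PPARα-null Wy14643 heart 4. When probe sets of a gene were averaged, limma called 0 interactions (525 at an unadjusted p under 0.05, against 456), as it did when only the compared groups entered the fit (382).

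The genes called in wild-type hearts were followed one by one in PPARα-null hearts. Of the 18 higher genes, 17 had the same sign in PPARα-null hearts, 10 of them at an unadjusted p under 0.05, with a median of 0.21 there against 0.50 in wild-type hearts. Of the 42 lower genes, 27 had the same sign, 13 at an unadjusted p under 0.05, and 2 had the opposite sign at that level, with a median of −0.09 there against −0.55. Over all 8237 tested genes, 58.5% had the same sign in both genotypes. At an unadjusted p under 0.05 in PPARα-null hearts, 694 of the 8237 had the same sign and 225 the opposite sign. Chd6 differed by 0.61 ± 0.16, Neat1 by 0.33, Car4 by 0.41, Slc4a4 by −0.50, Magi3 by −0.61 and Akr1c14 by −0.76 ± 0.26 in PPARα-null hearts, all without a call there. For Chd6 and Akr1c14 the interaction was 0.31 ± 0.24 and −0.40 ± 0.37, neither called (adjusted p = 0.976 for both, limma). An unadjusted p under 0.05 in the interaction was found for 29 of the 42 lower and 5 of the 18 higher genes. Over all 8237 tested genes it was found for 456. Ehhadh was among the lower genes (−1.02, adjusted p = 0.123, limma), and differed by 0.08 in PPARα-null hearts. It averaged 4.63 after DHA oil and 4.55 after Wy14643 there, near the brightness limit of 4.32. Ucp3, Lgals4, Prrg1, Trim7 and Slc26a2 averaged under that limit in both of these PPARα-null groups, so their differences there are those of dim signals. The rule that chose the called genes used the wild-type side of the interaction, so the counts above are a description.

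**Figure D5:**
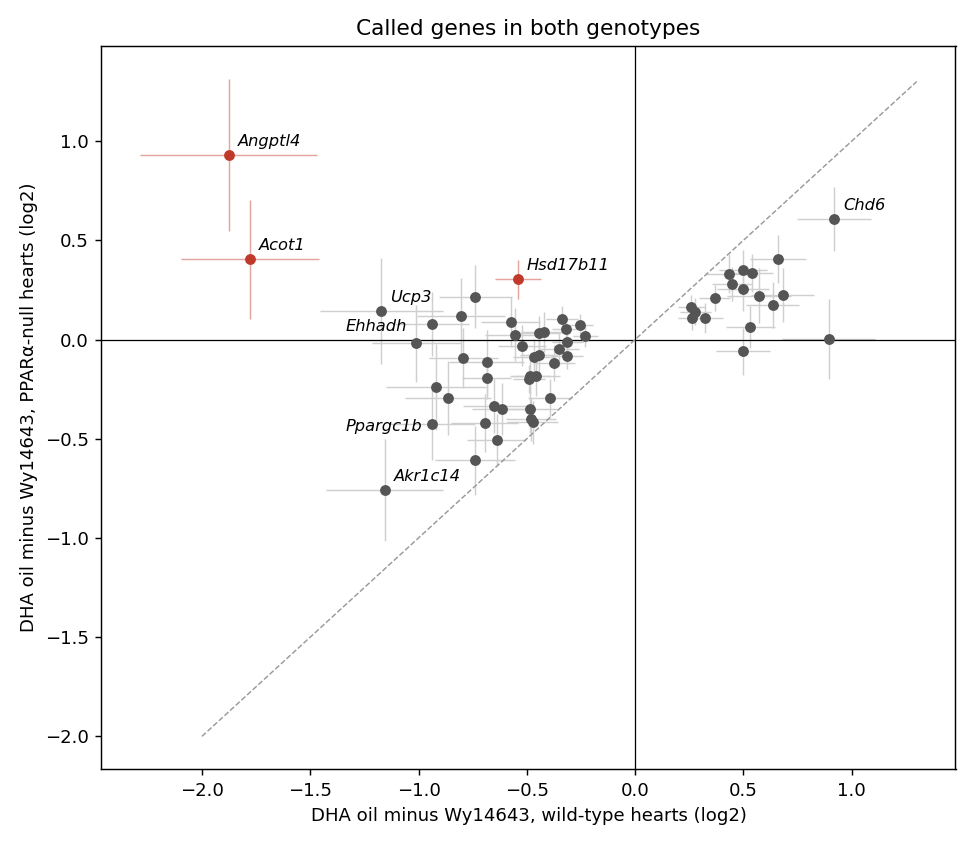
DHA oil minus Wy14643 for the 60 genes called in wild-type hearts, with the wild-type log2 difference on the horizontal axis and the PPARα-null difference on the vertical axis (points with SE bars; the dashed line marks equal differences). Angptl4, Acot1 and Hsd17b11, in red, are the genes whose interaction was called and lie above 0 on the vertical axis.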

How the data were processed

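The deposited values are log2 signals that the authors made with GCRMA 2.2.0, per the submitters' processing notes; its background correction and quantile scaling compress dim signals and assume alike overall distributions. They were used as deposited. Of 45101 probe sets, 34958 carried 1 gene symbol; 932 with several and 9211 with none were not used. The probe set with the highest mean stood for each of 18193 genes, and genes over 20 on the linear scale (4.32 on log2) in at least 3 arrays were tested.

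Limma 3.58.1 (R 4.3.3) fitted 1 mean for each of 12 groups over 55 arrays, and p-values were adjusted by Benjamini-Hochberg over 8237 genes of each comparison, called under 0.05. The number of arrays limits the precision. The model was also run on simulated data with independent noise and the same spread in all groups. That run cannot show how the model does where groups differ in spread. Alternatives were other filters, the mean of probe sets, renewed quantile normalization, array weights, a trended prior, the replicate number, fits of only the compared or only the wild-type groups, and leaving out each array, that in PPARα-null hearts added after the data were seen.

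Named genes were index genes, the 20 largest called in each direction, up to 4 called members per list and direction, and up to 5 interactions each way. The members and gene lists were chosen with earlier results of these data known. Cpt1b was not analysed here.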

Additional observations from a re-analysis of the deposited data

Results flagged for a closer look

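Single hearts stood apart from their group in 9 of 134 gene-by-group checks, of which chance flags about 1 in 20, by the gap to the nearest other heart. Wy14643 heart 1 was the lowest of its group in 6 of these, at 8.23 for Mt2, 6.52 for Fkbp5, 6.16 for Dtna, 8.33 for Zbtb16, 9.41 for Art3 and 8.70 for Klf15. The other Wy14643 hearts lay at 9.29 to 9.43, 8.11 to 8.42, 6.87 to 6.96, 9.84 to 10.07, 10.12 to 10.24 and 9.65 to 9.68 for these genes in the same order. DHA oil heart 4 was low in Hmox1, at 5.06 against 8.67 to 9.11 in the other DHA oil hearts. DHA oil heart 3 was high in Abca1, at 9.01 against 8.40 to 8.54. Wy14643 heart 4 was high in Prrg1, at 7.21 against 6.48 to 6.55.

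The difference between DHA oil and Wy14643 was not the same in wild-type and PPARα-null hearts for 3 genes, by limma's test of the interaction. These were Hsd17b11 (−0.84, adjusted p = 0.00427), Acot1 (−2.18, adjusted p = 0.0249) and Angptl4 (−2.81, adjusted p = 0.0249).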

How the results depend on the processing

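Counts of called genes moved with several choices. For DHA oil minus Wy14643 in wild-type hearts the count was 60, but 36 with no filter on dim genes, 116 with array weights, 0 in a fit of only the groups compared, 61 in a fit of wild-type groups, and 20 to 92 without 1 heart. With the replicate number as a block it was 51. Same-numbered hearts correlated at −0.086, −0.048, 0.038 and 0.093 in their deviations. Differently numbered hearts correlated at −0.179 to 0.262, a wider range, so whether the numbers pair the hearts cannot be told from these values. For DHA oil minus control the count was 153, but 56 with no filter, 411 with array weights, 98 with the replicate block, 13 in a fit of only those groups, and 0 to 250 without 1 heart. For Wy14643 minus control it was 5, but 15 at a brightness over 100, 12 with the mean of probe sets, 14 after quantile normalization, 41 with array weights, 14 with a trended prior, 9 with the replicate block, 2 in a fit of wild-type groups, and 0 to 16 without 1 heart. In PPARα-null hearts it was 2, but 6, 4, 4, 0, 5 and 9 under the first 6 of those settings in the same order, 0 with only those groups, and 0 to 98 without 1 heart. The interaction count was 3, but 0 with the mean of probe sets, 1 with array weights, 0 with only those groups, and 1 to 5 without 1 heart.

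Of 44 called genes that the rule names, 8 stayed called in all 9 fits without 1 heart: Chd6, Neat1, Raph1, Gpam, Hsd17b11, Slc25a42, Ehhadh and Acot1. Of these 44, the calls lost numbered 14 with the mean of probe sets, 16 with no filter, 13 with wild-type groups only and 8 with the replicate block. Those lost with that mean were Abcd3, Ano6, Art3, Dtna, Esrrg, Etfbkmt, Hsd17b11, Magi3, Mgst1, Raph1, Socs2, Trim7, Tspyl4 and Zfp771. With the mean of probe sets, Chd6 stood at 0.47, Neat1 at 0.29, Prrg1 at −0.42, Tnfaip2 at −0.36 and Slc25a42 at −0.40, and kept their calls. Calls were gained for Mt2 at a brightness over 100, with array weights and without DHA oil heart 4. Acot2 gained a call with the mean of probe sets, and Fgf16 without DHA oil heart 4 (−1.20, adjusted p = 0.035, limma). Directions turned for 4 genes. Esrrg became 0.0157 with the mean of probe sets, and Ppara −0.0415 with that mean and −0.029 with array weights. Without 1 heart, Ppara ranged from −0.0308 to 0.0889, Cd36 from −0.00098 to 0.0609 and Fbxo32 from −0.0132 to 0.0549. The cause of these changes was not tested. Genes with group means near the brightness limit are measured least well.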
